A study of Rattus norvegicus with 6 samples.

Results

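The miR-379 to miR-410 cluster is a run of microRNA (miRNA) hairpins in the imprinted Dlk1-Dio3 domain. Its members were taken by name: every row of the deposited miRNA table whose name carries 1 of 35 miRNA numbers, from miR-379 to miR-410, with any arm suffix. This gave 66 rows of the 842 in the table, of which 676 carry miRBase names. RefSeq, in rat build GRCr8, places 65 of the 66 on chromosome 6 and assigns them to 34 hairpin genes, with 62 rows on the plus strand and 3 on the minus strand. The exception is miR-679.

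The cluster is transcribed in placental mammals from the maternally inherited chromosome only, downstream of the long noncoding RNA gene Meg3, and is known for its expression in neurons. A hairpin is cut into a duplex whose arms, 5p and 3p, can each enter an Argonaute protein and repress mRNAs that match the seed, the short stretch near the 5′ end. In rat neurons, miR-134 limits the size of dendritic spines through the kinase Limk1, and miR-134, miR-329 and miR-381 take part in activity-dependent growth of dendrites. Mice that lack the cluster show altered anxiety-related and social behaviour.

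The tissue was orbitofrontal cortex, a frontal region that takes part in valuing choices, from 6 Sprague Dawley rats, adult males of an outbred stock, and its small RNA was sequenced. The 3 injured animals had 3 surgeries, on days 1, 4 and 7, each with a controlled cortical impact (a piston strike at 5 m/s and a depth of 2 mm). The 3 sham animals had 3 surgeries on those days without the impact. Tissue of both groups was collected on day 42, and the comparison asks how miRNAs of this region differ weeks after repeated mild injury. The labels number no replicates and name no batch, so replicate numbers here only name libraries.

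Libraries held 12538288 to 23680840 counted reads. The cluster took 509919, 412332 and 543765 of these reads in injured replicates 1, 2 and 3 and 276620, 480837 and 587929 in sham replicates 1, 2 and 3. All 8 neuronal marker miRNAs on a list from general knowledge were present in all 6 libraries, at a summed 296545 to 343403 CPM in injured and 261003 to 358544 CPM in sham animals. The sum includes miR-9a-5p, which alone had 4705219 of the 22311086 counted reads in injured replicate 1. CPM is the count scaled to a library of 1000000 reads, here with TMM factors between libraries. The epithelial miR-200 family stood apart in single libraries, with a summed 7.68, 1715 and 124 CPM in injured and 3527, 48.0 and 197 CPM in sham replicates 1, 2 and 3. Leaving out injured replicate 2 and sham replicate 1, where it was highest, gave 0 called members and 1 called miRNA outside the cluster. The list of red cell miRNAs summed to 23.5 to 43.1 CPM in injured and 51.8 to 92.7 CPM in sham libraries, and the microglial and immune list to 54.8 to 79.4 CPM in injured and 79.8 to 88.0 CPM in sham libraries. Groups overlapped for the oligodendrocyte list, at 1092 to 1757 CPM in injured and 1131 to 1924 CPM in sham libraries. They also overlapped for striated muscle (189 to 270 and 243 to 415 CPM) and mural cells (22866 to 40104 and 19313 to 30105 CPM). Every miRNA on these lists had reads in every library, and the part of other cell types in the values of the cluster was not tested. In bulk tissue, fewer cells of a type and less RNA per cell cannot be told apart.

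The mature sequences of the abundant members are shown first, since these molecules carried most of the cluster's reads. They are RefSeq sequences written 5′ to 3′, with the seed, bases 2 to 8, in capitals:
miR-379-5p: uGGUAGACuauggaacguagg
miR-411-5p: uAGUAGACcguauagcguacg
miR-300-3p: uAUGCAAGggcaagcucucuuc
miR-541-5p: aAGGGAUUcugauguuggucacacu
miR-323-3p: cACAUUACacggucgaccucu
miR-495: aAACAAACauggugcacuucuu
miR-369-5p: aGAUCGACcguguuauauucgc
miR-543-3p: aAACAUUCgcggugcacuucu
miR-382-5p: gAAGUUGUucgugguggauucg
miR-411-3p: uAUGUAACacgguccacuaa

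The next set is shown because these members had the smallest p-values of the cluster between injured and sham animals, or are the ones best known in neurons:
miR-382-3p: aAUCAUUCacggacaacacuu
miR-379-3p: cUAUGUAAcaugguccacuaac
miR-377-3p: uGAAUCACacaaaggcaacuuuu
miR-758-3p: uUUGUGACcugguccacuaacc
miR-376c-3p: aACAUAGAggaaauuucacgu
miR-329-3p: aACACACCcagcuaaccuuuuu
miR-494-3p: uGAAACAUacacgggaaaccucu
miR-539-3p: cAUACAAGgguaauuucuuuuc
miR-134-5p: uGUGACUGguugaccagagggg
miR-485-5p: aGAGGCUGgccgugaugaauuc
miR-381-3p: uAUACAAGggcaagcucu
miR-369-3p: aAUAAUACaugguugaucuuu

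The 65 sequences were 17 to 25 bases long and carried 59 distinct seeds, 54 of them found in a single member. The 5 shared seeds were AUACAAG of miR-381-3p and miR-539-3p, AUGUGGG of miR-299a-3p and miR-299b-3p, GGUUUAC of miR-299a-5p and miR-299b-5p, UGGAUAU of miR-376b-5p and miR-376c-5p, and GGUUGUC of miR-494-5p, miR-496-5p and miR-410-5p. miR-379-5p and miR-411-5p, the most abundant members, have different seeds. GC content was lowest at 23.8% for miR-369-3p, a miRNA reported in human cells to act with AU-rich elements, and highest at 72.7% for miR-323-5p.

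Some members resemble one another closely. Compared without gaps over 18 bases from the 5′ end, miR-300-3p and miR-381-3p differ by the single substitution G4A, in which miR-300-3p is given first and positions count from 1 at the 5′ end. This base lies in the seed. miR-376c-5p and miR-376b-5p differ by U19G over 21 bases, and miR-299a-5p and miR-299b-5p by U1C over 20 bases. miR-299b-3p matches miR-299a-3p without a mismatch over its 17 bases. Counts of such look-alikes can share reads and are uncertain to that degree.

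Levels within the cluster ran from a mean of 6086 CPM for miR-379-5p down to the floor of detection. By mean CPM over the 6 libraries, 4 members had at least 1000 CPM, 22 had 100 to 1000, 17 had 10 to 100, 13 had 1 to 10, and 10 had under 1. miR-379-5p had 5407, 6476 and 6131 CPM in injured replicates 1, 2 and 3 and 5379, 6707 and 6418 CPM in sham replicates 1, 2 and 3. miR-411-5p had 5858, 7369 and 5878 CPM in injured and 5461, 6692 and 5022 CPM in sham libraries. The counts of these miRNAs, made by the first and second hairpins of the cluster, were close to each other: the ratio of miR-379-5p to miR-411-5p was 0.923, 0.879 and 1.04 in injured and 0.985, 1.00 and 1.28 in sham libraries, so the order between them changed from library to library. Together they took 47.5% to 53.3% of the cluster's reads in injured and 50.0% to 52.3% in sham libraries.

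Next in level came miR-300-3p, with 1724, 1486 and 1610 CPM in injured and 1510, 1428 and 1327 CPM in sham libraries. miR-541-5p, the longest of the 65 at 25 bases, followed with 1229, 1116 and 966 CPM in injured and 1130, 1139 and 688 CPM in sham libraries. In every library miR-300-3p lay below miR-379-5p and miR-411-5p and above miR-541-5p. miR-323-3p averaged 790 ± 41.0 CPM in injured and 900 ± 205 CPM in sham animals, and miR-495 averaged 804 ± 93.0 CPM in injured and 747 ± 146 CPM in sham animals (SD, n = 3 each). miR-323-3p was higher than miR-495 in injured replicates 2 and 3 and in sham replicates 2 and 3, and lower in the other libraries. The 12 most abundant names held 82.8% to 86.8% of the cluster's reads in injured and 80.7% to 84.1% in sham libraries.

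**Figure D1:**
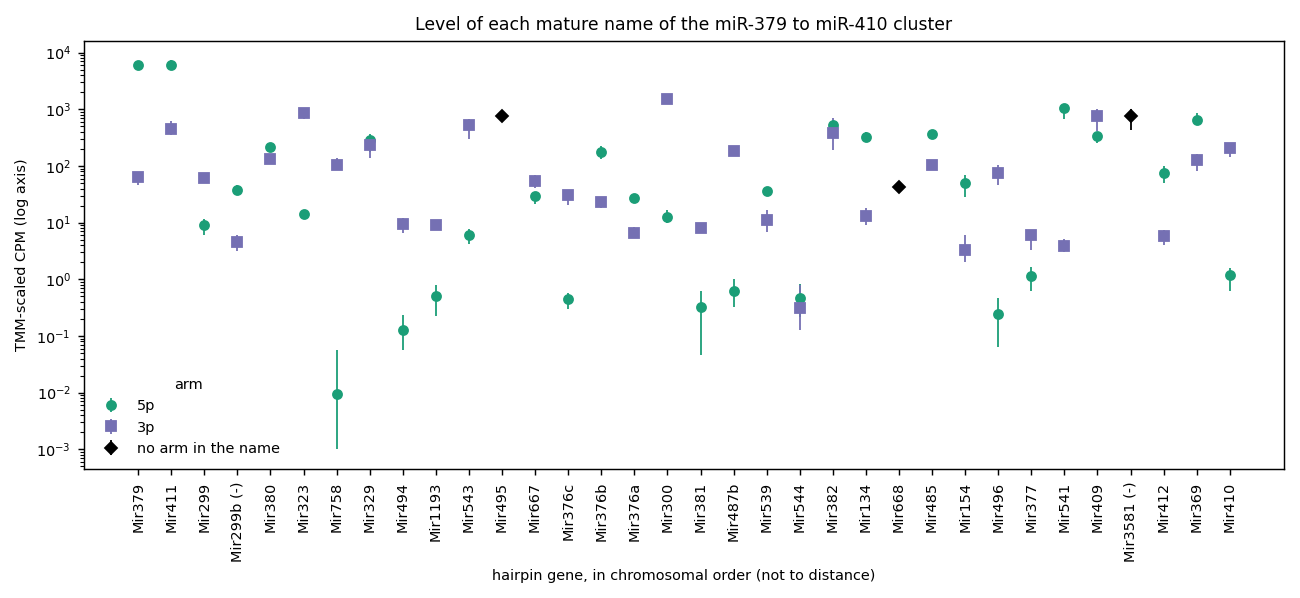
Mean TMM-scaled CPM (log axis) of the 65 members with a RefSeq sequence over the 6 libraries, by hairpin gene in chromosomal order from Mir379 to Mir410, with whiskers from the lowest to the highest library and (-) for a gene on the minus strand. Circles are 5p arms, squares 3p arms and diamonds names without an arm; Mir379 and Mir411 stand highest, and the lower whisker of the 5p arm of Mir758, which had reads in sham replicate 2 only, is cut short.

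At the other end, 9 members were too low to be tested: miR-376c-5p, miR-381-5p, miR-494-5p, miR-496-5p, miR-544-3p, miR-544-5p, miR-679, miR-758-5p and miR-1193-5p. Together they had 56, 36 and 56 reads in injured and 29, 56 and 66 reads in sham replicates 1, 2 and 3. miR-758-5p had 1 read in all, in sham replicate 2. A count of 0 allows up to 3 reads, which is 0.130 to 0.189 CPM in injured and 0.112 to 0.235 CPM in sham libraries and covers counting error only. Of the untested members, miR-1193-5p had no overlap between groups in CPM, at 0.605, 0.504 and 0.780 CPM in injured and 0.469, 0.501 and 0.223 CPM in sham libraries. Its raw counts did overlap, with 13, 8 and 18 reads in injured and 6, 9 and 6 reads in sham libraries. Among the 534 miRNAs tested, groups did not overlap in CPM for 7.87%.

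Several members lie on the strand opposite another named miRNA. In the RefSeq table, 43 pairs of mature names in the deposited table overlap on opposite strands of the same site, and 8 of these pairs include a member. These pairs are shown because their counts bear on what a member's value means. Capitals mark the bases that pair with the name on the other strand:
miR-382-3p: AAUCAUUCACGGACAACACUU
miR-3592: AAGUGUUGUCCGUGAAUGAUU
miR-369-5p: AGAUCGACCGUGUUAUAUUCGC
miR-3578: GCGAAUAUAACACGGUCGAUCU
miR-539-5p: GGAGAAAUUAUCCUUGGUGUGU
miR-3576: ACACACCAAGGAUAAUUUCUCC
miR-380-5p: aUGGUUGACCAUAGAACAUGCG
miR-3579: gCGCAUGUUCUAUGGUCAACCA
miR-409a-3p: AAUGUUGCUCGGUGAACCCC
miR-409b: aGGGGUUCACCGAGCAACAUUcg
miR-376a-3p: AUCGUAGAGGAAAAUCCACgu
miR-3595: GUGGAUUUUCCUCUACGAU
miR-299a-3p: UAUGUGGGACGGUAAACCGcu
miR-299b-5p: CGGUUUACCGUCCCACAUAc
miR-299a-5p: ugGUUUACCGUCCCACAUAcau
miR-299b-3p: UAUGUGGGACGGUAAAC

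The counts of both names were nearly equal in 5 of the 8 pairs, and this held in every library. miR-539-5p had 862, 538 and 822 reads in injured and 389, 778 and 858 reads in sham libraries, and miR-3576 had the identical 6 counts. miR-382-3p had 8377, 4096 and 4444 reads in injured and 3441, 12691 and 13379 reads in sham libraries, against 8350, 4088 and 4413 for miR-3592 in injured and 3436, 12670 and 13365 in sham libraries. The largest gap in any library was 0.0204% for miR-380-5p and miR-3579, 0.127% for miR-369-5p and miR-3578, 0.698% for miR-382-3p and miR-3592, and 1.42% for miR-409a-3p and miR-409b. A near-identical count for opposite strands means that these names cannot be taken as separate measurements, and without strand their reads cannot be told apart. Over the whole table, 27 of the 43 pairs lay within 2%.

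The other 3 pairs differed. miR-299b-5p had 58.4% to 61.9% of the counts of miR-299a-3p over the 6 libraries, miR-299b-3p had 46.9% to 60.1% of those of miR-299a-5p, and miR-3595 had 57.4% to 66.7% of those of miR-376a-3p. The minus-strand names miR-3592, miR-3578, miR-3576, miR-3579 and miR-3595 are not members under the naming rule, whereas miR-409b, miR-299b-5p and miR-299b-3p are. Counting 1 row per opposite-strand pair leaves 54 tested members, of which 0 were called.

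**Figure D2:**
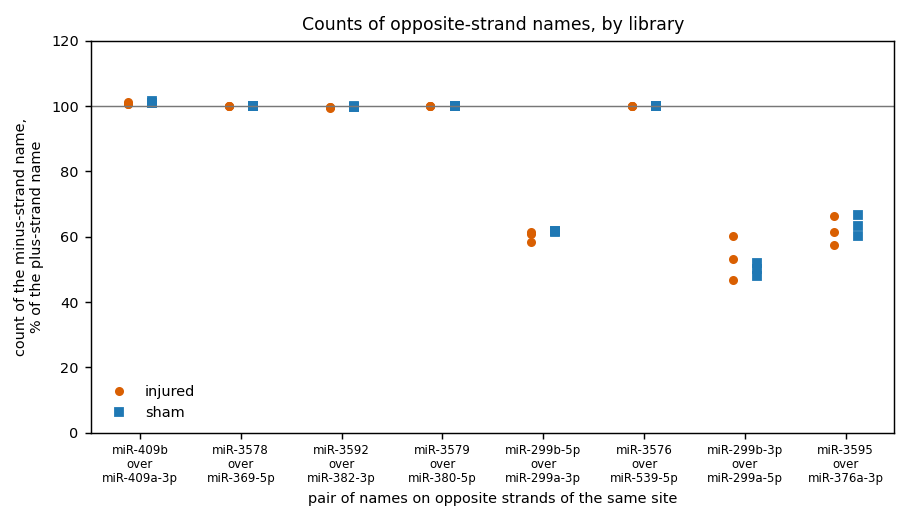
Count of the minus-strand name as a percentage of the plus-strand name for the 8 pairs that include a member, by library, with injured (circles) left of sham (squares) and pairs in order of mean count. In 5 pairs the points sit at 100%, and in the other 3 they lie between 46.9% and 66.7% in both groups.

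As a whole, the cluster took a like share of reads in both groups. It held 2.29%, 2.39% and 2.48% of counted reads in injured and 2.21%, 2.47% and 2.48% in sham replicates 1, 2 and 3. The means were 2.39% ± 0.10 in injured and 2.39% ± 0.16 in sham animals (SD, n = 3 each), and the groups overlapped. The library totals include both names of near-equal opposite-strand pairs, such as miR-9a-5p and miR-9b-3p with 4705219 and 4694949 reads in injured replicate 1. With 1 row per opposite-strand pair the mean shares were 3.002% in injured and 3.07% in sham animals. Summed TMM-scaled CPM were 23727, 25962 and 23569 in injured and 21634, 26783 and 21862 in sham libraries.

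No member differed between injured and sham animals by the test. The quasi-likelihood test of edgeR kept 57 members, and 0 of them passed an adjusted p of 0.05, as did 0 of all 534 miRNAs tested (0%). At an unadjusted p under 0.05 there were 0 members, against 12 of the 534 (2.25%), of which 1 was higher (0.187%) and 11 lower (2.06%) in injured animals. DESeq2 gave 0 called members and 1 of 57 under that unadjusted threshold, where the share over all miRNAs was not counted. The smallest unadjusted p of a member was 0.0762 and the smallest adjusted p 0.878. Groups did not overlap for 4 of 57 members (7.02%), against 42 of 534 over all miRNAs (7.87%), so the cluster's share was close to the background. Of the 4, 1 was higher and 3 were lower in injured animals, where all miRNAs had 16 (3%) and 26 (4.87%).

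Fold changes of the cluster were small and went both ways. The log2 fold change, injured over sham, was positive for 28 and negative for 29 members, from -0.81 to 0.58, with a median of -0.03, the same as the median of -0.03 over the 534. Over all miRNAs 45.7% were positive. With upper-quartile scaling, which moved the median of all miRNAs to 0.12, the split was 35 positive and 22 negative, and with library totals, which moved it to -0.10, it was 23 and 34. No member was past 1 on the log2 scale in either direction, against 14 of the 534. The median distance from a member's log2 fold change to the end of its 95% interval was 0.52. Changes smaller than this were mostly not detectable at this number of animals. The intervals are not adjusted for the 534 miRNAs tested, so changes above this distance could also go uncalled. The member with the largest estimate, miR-382-3p at -0.81, had an edgeR adjusted p of 0.878. The median SD of log2 CPM within a group was 0.26 for members and 0.27 for all miRNAs.

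**Figure D3:**
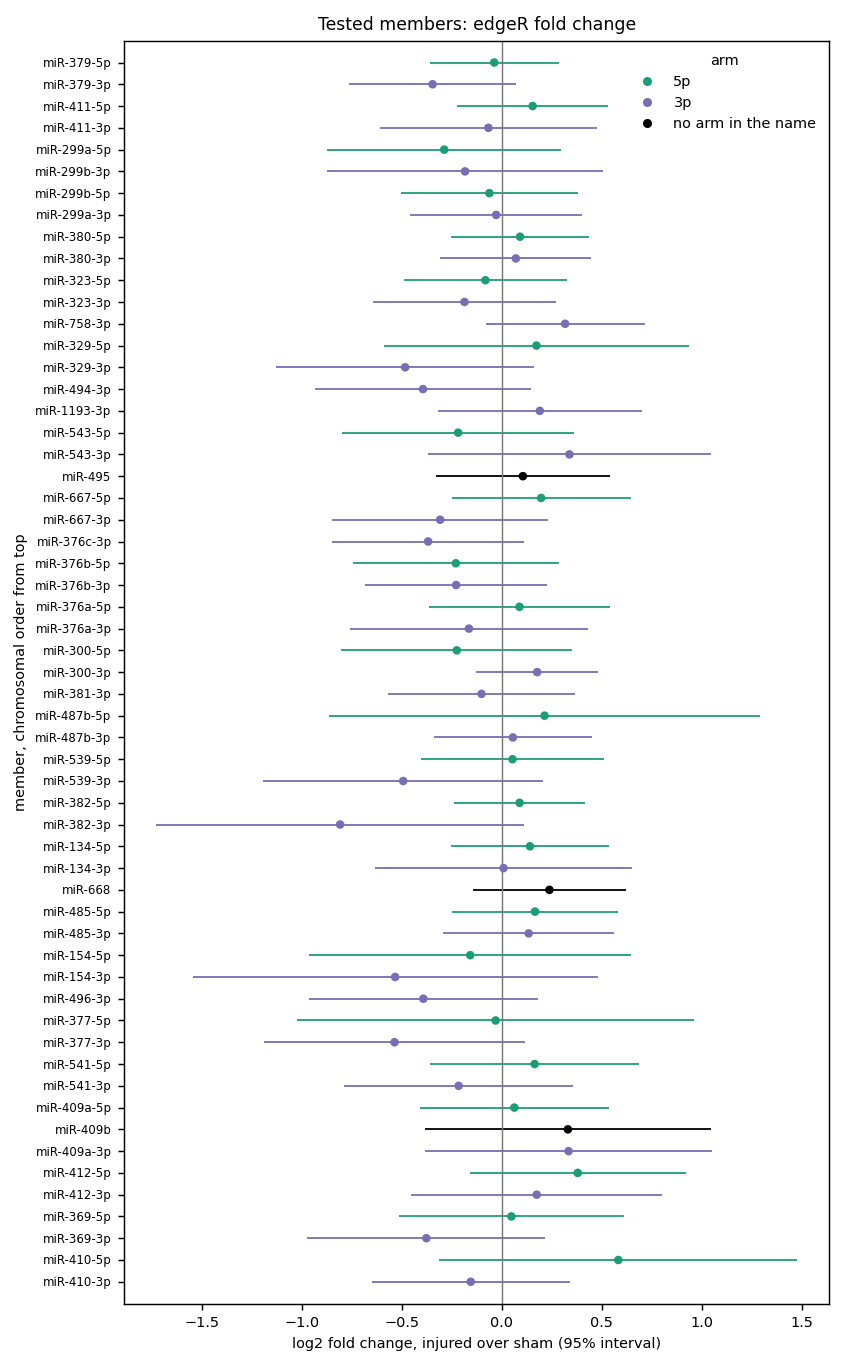
edgeR log2 fold change of the 57 tested members, injured over sham, with 95% intervals, in chromosomal order from miR-379 at the top to miR-410 at the bottom and coloured by arm. Each interval includes 0, and the estimates run from -0.81 for miR-382-3p to 0.58 for miR-410-5p.

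No change was called in the most abundant members, and the width of their intervals varied. miR-379-5p averaged 6005 ± 546 CPM in injured and 6168 ± 698 CPM in sham animals (SD, n = 3 each). Its fitted ratio of injured to sham was 0.974, with a 95% interval from 0.779 to 1.22. The ratio was 1.11 (0.857 to 1.44) for miR-411-5p, 1.13 (0.915 to 1.40) for miR-300-3p and 1.12 (0.779 to 1.61) for miR-541-5p. For miR-323-3p, miR-495 and miR-382-5p it was 0.878, 1.08 and 1.06. Intervals were wider for miR-409b (0.766 to 2.06), miR-409a-3p (0.766 to 2.07) and miR-543-3p (0.773 to 2.07), which are also among the 12 most abundant names. Injured and sham libraries overlapped for each of these 10 names, of which miR-409a-3p and miR-409b are not separate measurements. The sign for miR-379-5p is not fixed by the data, since its log2 fold change of -0.04 became 0.12 with upper-quartile scaling.

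miR-382-3p had the smallest p of the cluster. It had 390, 258 and 193 CPM in injured replicates 1, 2 and 3 and 269, 707 and 497 CPM in sham replicates 1, 2 and 3. Sham replicate 1 lay among the injured libraries, and sham replicates 2 and 3 lay above all of them. The log2 fold change was -0.81 ± 0.39 (SE), with an unadjusted p of 0.0762 and an edgeR adjusted p of 0.878. It was -0.40 without sham replicate 2 and -1.12 without injured replicate 1. Because of the near-equal counts above, this value belongs to miR-382-3p and miR-3592 together. miR-382-5p, from the other arm of the same hairpin, had 519, 568 and 524 CPM in injured and 471, 543 and 502 CPM in sham libraries, and its log2 fold change was 0.09 ± 0.14.

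The 4 tested members without overlap between groups all had modest changes. miR-379-3p, the lesser arm of the first hairpin, had 62.2, 46.2 and 57.2 CPM in injured and 62.3, 70.1 and 78.3 CPM in sham libraries, so the highest injured library all but touched the lowest sham library. miR-377-3p had 6.61, 3.27 and 4.81 CPM in injured and 7.04, 7.02 and 7.33 CPM in sham libraries. Its sham values were close together and its injured values spread widely below them. miR-376c-3p, of a family whose primary transcripts undergo A-to-I editing in mouse and human brain, had 33.2, 26.6 and 20.8 CPM in injured and 34.3, 34.98 and 34.95 CPM in sham libraries. For these 3 the log2 fold changes were -0.35 ± 0.18, -0.54 ± 0.28 and -0.37 ± 0.20 (SE). Each rested in part on single libraries: miR-379-3p had -0.21 without injured replicate 2, miR-377-3p had -0.30 without injured replicate 2 and -0.81 without injured replicate 1, and miR-376c-3p had -0.19 without injured replicate 3. miR-758-3p went the other way, with 113, 103 and 137 CPM in injured and 101, 90.8 and 90.8 CPM in sham libraries and a log2 fold change of 0.32 ± 0.17. The edgeR adjusted p was 0.878 for each of the 4.

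Another 3 members complete the 8 with the smallest p. miR-329-3p had 257, 140 and 193 CPM in injured and 213, 267 and 344 CPM in sham libraries, a log2 fold change of -0.48 ± 0.28 (SE). miR-494-3p had 10.4, 6.55 and 7.59 CPM in injured and 10.01, 11.9 and 10.4 CPM in sham libraries, and miR-539-3p had 10.7, 6.86 and 9.93 CPM in injured and 13.1, 8.69 and 16.8 CPM in sham libraries. Their log2 fold changes were -0.40 ± 0.23 and -0.49 ± 0.30. Leaving out single libraries gave -0.72 to -0.27 for miR-329-3p, -0.61 to -0.24 for miR-494-3p and -0.67 to -0.25 for miR-539-3p. In each of the 3 the groups overlapped, and injured replicate 2 was the lowest of the 6 libraries. Of the 8 members, 7 were 3p arms with a negative and 1 was a 3p arm with a positive log2 fold change.

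**Figure D4:**
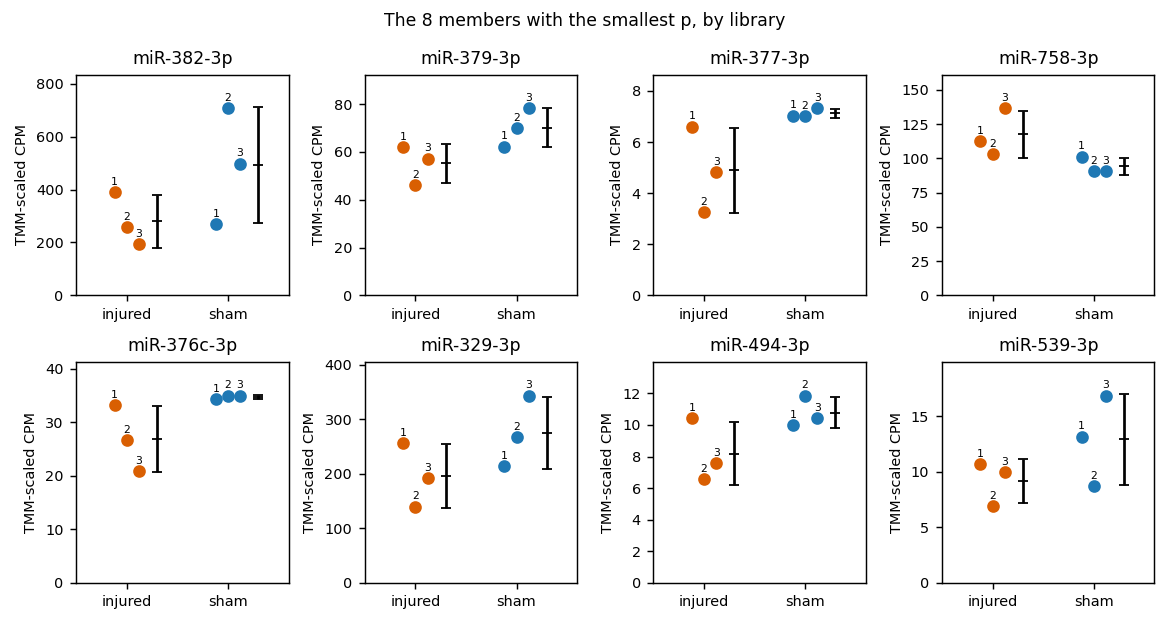
TMM-scaled CPM by library of the 8 members with the smallest unadjusted p, injured left of sham, with replicate numbers above the points and the mean ± SD (n = 3) beside each group. The points of miR-379-3p, miR-377-3p and miR-376c-3p are lower, and those of miR-758-3p higher, in each injured library than in any sham library, and miR-382-3p is spread most widely in sham animals.

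The members best known from work on neurons showed small differences. miR-134-5p had 313, 316 and 399 CPM in injured and 284, 331 and 318 CPM in sham libraries, and its fitted ratio of injured to sham was 1.10, with a 95% interval from 0.839 to 1.45. miR-485-5p, which represses the synaptic vesicle protein SV2A in rat neurons, had 331, 423 and 426 CPM in injured and 346, 396 and 310 CPM in sham libraries, a ratio of 1.12 (0.841 to 1.495). Both were spread over overlapping ranges. miR-485-3p had a ratio of 1.10 (0.815 to 1.48). miR-381-3p had 6.51, 8.12 and 8.54 CPM in injured and 8.99, 8.24 and 7.66 CPM in sham libraries, a ratio of 0.931 (0.674 to 1.29). It was low beside its look-alike: the count of miR-300-3p was 183 to 265 times that of miR-381-3p in injured and 168 to 173 times in sham libraries.

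Among the other members of interest in brain, miR-410-3p, the last miRNA of the cluster, had 223, 143 and 213 CPM in injured and 230, 193 and 223 CPM in sham libraries. miR-369-3p had 147, 109 and 81.0 CPM in injured and 119, 165 and 154 CPM in sham libraries, with a log2 fold change of -0.38 ± 0.25 (SE) that ran from -0.62 to -0.16 when single libraries were left out. Groups overlapped for both. In the miR-376 family, miR-376a-3p averaged 6.28 ± 1.21 CPM in injured and 7.03 ± 1.57 CPM in sham animals, and miR-376b-3p averaged 21.2 ± 4.26 CPM in injured and 24.8 ± 0.501 CPM in sham animals (SD, n = 3 each). The log2 fold changes were -0.17 and -0.23.

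The values of miR-409a-3p and miR-409b followed each other, as their near-equal counts require. miR-409a-3p had 736, 1013 and 776 CPM in injured and 616, 968 and 420 CPM in sham libraries, and miR-409b had 740, 1019 and 785 CPM in injured and 622, 976 and 426 CPM in sham libraries. Their log2 fold changes were 0.33 ± 0.31 and 0.33 ± 0.30 (SE). They were 0.74 and 0.73 without sham replicate 2, 0.087 and 0.086 without sham replicate 3, and 0.19 for both without injured replicate 2. miR-543-3p, with 616, 685 and 496 CPM in injured and 441, 681 and 299 CPM in sham libraries, had a log2 fold change of 0.34 ± 0.30, with 0.73 without sham replicate 2 and 0.094 without sham replicate 3. miR-369-5p had 639, 804 and 556 CPM in injured and 554, 854 and 527 CPM in sham libraries. In these 4 names, of which miR-409a-3p and miR-409b are not separate measurements, sham replicate 2 was the highest sham library and sham replicate 3 the lowest. miR-539-5p averaged 36.5 ± 3.21 CPM in injured and 35.2 ± 7.07 CPM in sham animals, and miR-154-5p averaged 47.8 ± 17.1 CPM in injured and 53.4 ± 17.0 CPM in sham animals. miR-487b-3p averaged 184 ± 27.0 CPM in injured and 177 ± 6.45 CPM in sham animals, and miR-411-3p 445 ± 35.9 CPM in injured and 466 ± 143 CPM in sham animals (SD, n = 3 each).

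Both groups held libraries in which many members had their extremes. The highest library was injured replicate 1, 2 or 3 for 6, 11 and 11 of 57 tested members and sham replicate 1, 2 or 3 for 2, 15 and 12. The lowest was injured replicate 1, 2 or 3 for 3, 15 and 9 members and sham replicate 1, 2 or 3 for 10, 4 and 16. For sham replicate 2 this is 26.3% of members at their highest, against 16.3% of all 534 miRNAs, and 7.02% at their lowest, against 17.2%. Sham replicate 1 had 3.51% at their highest, against 12.9%, and 17.5% at their lowest, against 9.18%. Sham replicate 3 had 21.1% at their highest, against 26.2%, and 28.1% at their lowest, against 22.1%. Injured replicate 2 had 19.3% at their highest, against 21.3%, and 26.3% at their lowest, against 25.1%. Injured replicate 3 had 19.3% at their highest, against 13.7%, and 15.8% at their lowest, against 16.9%. Injured replicate 1 had 5.26% at their lowest, against 9.55%. Against its own mean over the 6 libraries, a member was higher in 38, 22 and 32 of 57 cases in injured replicates 1, 2 and 3 and in 19, 42 and 32 cases in sham replicates 1, 2 and 3. Over all 534 miRNAs the corresponding shares stayed between 46.3% and 53.2%, against 33.3% to 73.7% for the members. The range was not particular to the cluster: over the 26 tested other miRNAs of the Dlk1-Dio3 domain the shares ran from 30.8% to 65.4%. The libraries behind these ranges differed in part, since sham replicate 3 had 56.1% for members and 30.8% for the other miRNAs of the domain. The lists differ in size, and no test compares these shares.

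Fold changes were also counted by arm. Of 24 tested 5p names, 15 were positive on the log2 scale, and their median was 0.07. Of 30 tested 3p names, 10 were positive, with a median of -0.18. Over all miRNAs tested, 106 of 217 5p names (48.8%) and 92 of 222 3p names (41.4%) were positive. These counts are descriptions of the 6 libraries, and no test compares them. Arms were compared within hairpins, where the scaling between libraries cancels.

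For this, the log2 ratio of the 5p to the 3p count was taken for each hairpin whose 2 arms each averaged 10 counts or more, which left 25 member hairpins of 153. In 15 of the 25 the 5p arm was the more abundant, which is 60% against 53.6% over all hairpins, and in 10 the 3p arm. The leading arm was the same in all 6 libraries for 23. The exceptions were miR-382 and miR-329. Arms differed more than 8-fold in 13 hairpins and less than 2-fold in 4. In all counts of the 25, miR-299a and miR-299b are 2 hairpins, although they lie on opposite strands of the same site. Their mean log2 ratios were -2.82 and 3.06, so the 5p lead of miR-299b mirrors the 3p lead of miR-299a.

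The most one-sided hairpins lay at both ends of the range. miR-541 had log2 ratios averaging 8.25 ± 0.15 in injured and 7.84 ± 0.38 in sham animals, and miR-379 6.77 ± 0.35 in injured and 6.46 ± 0.11 in sham animals (SD, n = 3 each), in favour of 5p. In favour of 3p, miR-487b averaged -8.19 ± 0.88 in injured and -8.24 ± 0.14 in sham animals, and miR-410 averaged -7.05 ± 0.54 in injured and -7.88 ± 0.75 in sham animals. At these ends the lesser arm is scarce: miR-487b-5p averaged 0.661 ± 0.341 CPM in injured and 0.560 ± 0.047 CPM in sham animals, miR-410-5p 1.42 ± 0.223 CPM in injured and 0.939 ± 0.445 CPM in sham animals, and miR-541-3p 3.62 ± 0.566 CPM in injured and 4.20 ± 0.805 CPM in sham animals. Leading arms began with U in 10, A in 9, G in 4 and C in 2 of the 25 hairpins, and lesser arms with U in 5, A in 14, C in 6 and G in 0. A or U opened 19 of 25 in each.

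Arm use did not differ between injured and sham animals by the test. With limma, 0 of the 25 member hairpins and 0 of all 153 (0%) passed an adjusted p of 0.05. At an unadjusted p under 0.05 there was 1 member hairpin, against 5 of 153 (3.27%), and groups were free of overlap in 0 member hairpins, against 5 of 153 (3.27%). The hairpin with the smallest p was miR-382, printed here with its 5p and then its 3p arm in capitals:
miR-382 hairpin: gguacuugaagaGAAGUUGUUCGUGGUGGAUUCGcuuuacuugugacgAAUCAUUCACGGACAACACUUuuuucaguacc
Its log2 ratio of 5p to 3p was 0.41, 1.14 and 1.44 in injured and 0.81, -0.38 and 0.01 in sham replicates 1, 2 and 3. Sham replicate 1 lay among the injured libraries. The difference was 0.85 ± 0.38 (SE), with an unadjusted p of 0.0493 and a limma adjusted p of 0.845, and the 3p count in it is the one shared with miR-3592.

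The ratios of miR-410 and miR-329 came next. miR-410 had -7.56, -6.47 and -7.11 in injured and -8.43, -7.03 and -8.19 in sham libraries, a difference of 0.84 ± 0.42 (SE) that rests on the scarce 5p arm. miR-329 had a difference of 0.66 ± 0.34. Both had a limma adjusted p of 0.845 and overlapping groups.

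In 21 of the 25 member hairpins the mean ratio of 5p to 3p was higher in injured than in sham animals, with a median difference of 0.20, whereas over all 153 hairpins 82 (53.6%) were higher, with a median of 0.02. This count carries no test, because hairpins of the same libraries are not replicates. It was 16 of 25 without injured replicate 2 and 16 of 24 without injured replicate 3, the lowest of the single-library omissions. With 1 row per opposite-strand pair it was 20 of 24. Over all hairpins of these fits, in the same order, 51.3%, 55.6% and 54.4% were higher. By library, the median deviation of the 25 ratios from their own means was -0.09, 0.32 and 0.19 in injured and 0.08, -0.09 and -0.38 in sham replicates 1, 2 and 3. Injured replicate 1 thus lay below sham replicate 1 and beside sham replicate 2, and the groups overlapped on this measure. Over all 153 hairpins the same deviations stayed between -0.04 and 0.04.

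**Figure D5:**
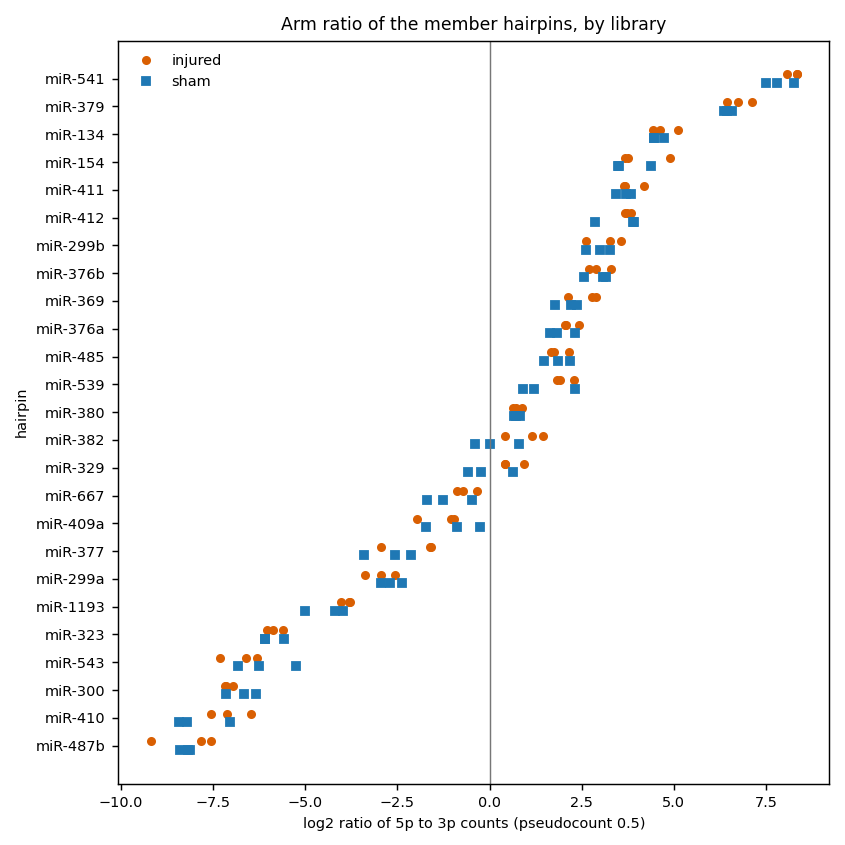
Log2 ratio of 5p to 3p counts (pseudocount 0.5) of the 25 member hairpins, 1 point per library, with injured circles above sham squares and hairpins ordered by their mean ratio. The hairpins run from mainly 3p (miR-487b) to mainly 5p (miR-541), and injured and sham points overlap in each.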

How the data were processed

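Per the file headers, the authors deposited 1 table of raw read counts and TPM. The deposited TPM equals the count scaled to 1000000 reads to within 4.66e-10, without a length term, so tests used the counts and TPM entered 1 alternative. Per the submitters' processing notes, Bowtie and build rn6 were used; for versions, read counter, strand handling and filters, the sources used here give nothing. Per the labels' protocols, libraries were ligation-based and size-selected, so levels of different miRNAs also carry ligation bias.

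The edgeR 4.0.16 quasi-likelihood test in R 4.3.3 was run on the whole table with TMM and filterByExpr (minimum count 10, minimum total 15), with Benjamini-Hochberg adjustment over all 534 miRNAs kept. Arm ratios were tested with limma 3.58.1 (pseudocount 0.5, arms averaging at least 10 counts), and DESeq2 1.42.0 was an alternative. The SE was derived from the log2 fold change and its F statistic. Procedures were tested on simulated data. RefSeq (GRCr8) gave sequences, strands and order; coordinates were not used, since the builds differ. Members and lists were chosen with earlier results of these data known. Named were the 12 most abundant tested members, the 8 with the smallest p, 21 fixed names, and both arms of the hairpins with the 2 highest, 2 lowest and 2 smallest-p ratios, 34 in all. The arm features, per-library patterns and seed groups were chosen after values were seen, as were other names. P-values measure the spread between 3 animals a group, and floors, without molecular identifiers, cover counting error only.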

Additional observations from a re-analysis of the deposited data

How the results depend on the processing

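Called members were 0 under all 16 alternatives, with a smallest adjusted p of 0.663 (without sham replicate 2), and called member hairpins were 0 under all 11, with a smallest of 0.368. Unadjusted p-values under 0.05 numbered 6 of 58 tested members without injured replicate 1 and 6 of 59 without sham replicate 2. Under the other alternatives they numbered at most 1. The share of all miRNAs under that threshold was not counted in these fits, so the counts have no background beside them. The cluster's share of reads in injured and sham animals was 3.06% and 3.10% with 1 row per near-equal pair, 3.97% and 4.11% with miR-9a and miR-9b out of the total, and 3.002% and 3.07% with 1 row per opposite-strand pair; leaving out single libraries gave 2.34% to 2.44% in injured and 2.34% to 2.48% in sham. Of 34 named members, 23 kept their sign under every alternative. With upper-quartile scaling, log2 fold changes reversed to 0.12 for miR-379-5p, 0.080 for miR-411-3p and 0.060 for miR-381-3p; with library totals to -0.0069 for miR-369-5p and -0.022 for miR-487b-3p, which was also -0.020 with limma on log2(TPM + 1). Without both libraries highest in miR-200, an alternative chosen after seeing the data like that on opposite-strand pairs, they were -0.19 for miR-369-5p, 0.095 for miR-410-3p, 0.14 for miR-154-5p and -0.17 for miR-487b-5p. Leaving out single libraries gave -0.089 to 0.072 for miR-379-5p, -0.040 to 0.31 for miR-541-5p, -0.093 to 0.35 for miR-369-5p, -0.24 to 0.24 for miR-411-3p, -0.16 to 0.0083 for miR-381-3p, -0.27 to 0.042 for miR-410-3p, -0.33 to 0.040 for miR-376a-3p, -0.018 to 0.27 for miR-539-5p, -0.35 to 0.13 for miR-154-5p, -0.026 to 0.20 for miR-487b-3p and -0.16 to 0.55 for miR-487b-5p. Without both libraries highest in miR-200, 1 of all miRNAs was called, none of them a member. The causes were not tested. No paired analysis was possible because the labels give no replicate numbers. The number of animals, and for the 10 members under 1 CPM the depth, limit what could be detected.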

Other observations

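The other miRNAs of the Dlk1-Dio3 domain in the table, which include miR-127, miR-434, miR-136 and miR-433, were counted in the same fit. Of 28 such rows, 26 were tested and 0 were called. Of the 26, 18 were positive (69.2%) and 8 negative on the log2 scale, with a median of 0.08, against 45.7% positive and a median of -0.03 over all miRNAs. Groups did not overlap for 3 of the 26 (11.5%), against 7.87% over all miRNAs, and no test compares these rows with the cluster. The most abundant was miR-127-3p, whose gene lies antisense to the retrotransposon-derived Rtl1, with 14915, 15845 and 22106 CPM in injured and 14680, 13024 and 15381 CPM in sham replicates 1, 2 and 3. Its log2 fold change was 0.30 ± 0.17 (SE), and the groups overlapped. miR-433-3p had 387, 423 and 408.5 CPM in injured and 358, 370 and 295 CPM in sham libraries, higher in each injured than in each sham library, with an edgeR adjusted p of 0.878. miR-337-3p, the only 1 of the 26 at an unadjusted p under 0.05, averaged 0.995 ± 0.124 CPM in injured and 1.86 ± 0.638 CPM in sham animals (SD, n = 3 each), with an unadjusted p of 0.0269 and an adjusted p of 0.878. Summed over the 28 rows, these miRNAs had 28854, 30726 and 35620 CPM in injured and 27272, 28028 and 27523 CPM in sham libraries. The sums did not overlap, and they include miR-127-3p, which made up most of the difference between the group means of 31733 ± 3494 and 27607 ± 385 CPM in injured and sham animals.

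Members that share a seed were also summed. The GGUUGUC group of miR-494-5p, miR-496-5p and miR-410-5p had 1.77, 1.70 and 2.04 CPM in injured and 1.02, 1.62 and 1.15 CPM in sham libraries. The groups did not overlap, but injured replicate 2 and sham replicate 2 all but touched. Their gap was smaller than 3 reads, which is 0.189 CPM in injured replicate 2 and 0.167 CPM in sham replicate 2. Of single miRNAs, 7.87% of the 534 tested did not overlap, and no such share was counted for sums. miR-410-5p was the largest part of it in each library, with 25, 25 and 35 reads in injured and 8, 26 and 20 reads in sham libraries. The groups of miR-410-5p overlapped, and miR-494-5p and miR-496-5p were too low to be tested. The AUACAAG group of miR-381-3p and miR-539-3p had 17.2, 14.99 and 18.5 CPM in injured and 22.1, 16.9 and 24.5 CPM in sham libraries. No test was run on these sums, and the other 3 groups had overlapping libraries as well as the AUACAAG group.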
